A study of Mus musculus with 6 samples.

Results

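Basement membranes are thin sheets of matrix that surround blood vessels, nerves and muscle fibres and line the surface of a tendon. Their scaffold is a network of collagen IV, whose chains are encoded by genes that lie in head-to-head pairs: *Col4a1* with *Col4a2*, *Col4a3* with *Col4a4*, and *Col4a5* with *Col4a6*. The *Col4a1* and *Col4a2* chains assemble together and occur in nearly every basement membrane, while the *Col4a3*, *Col4a4* and *Col4a5* chains form a second network known from the kidney glomerulus, and *Col4a6* joins *Col4a5* in yet another. Collagens XV and XVIII are a related pair of collagen-proteoglycans of the basement membrane zone. The end of collagen XVIII can be cut off as endostatin, a fragment known to inhibit angiogenesis, and collagen XV holds a similar fragment.

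These 8 genes were taken by symbol from a table of 44788 gene symbols, and all 8 had a row. The table holds bulk RNA-seq counts of whole tail tendons of 3 wild-type (WT) libraries and 3 libraries from mice of the genotype Mkx-/-, which lack the tendon transcription factor Mohawk, all of strain C57BL/6 and with no treatment in the labels. The labels give an age of 3 weeks, and the description of the experiment gives 4 weeks. The sources used here give neither how the mutant allele was made nor whether a library came from 1 animal or a pool. The p-values therefore measure the spread between these libraries.

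Libraries held 10835070 to 14160301 counts. *Mkx* itself had 1381 to 1825 counts in WT and 491 to 620 in Mkx-/- libraries, which edgeR put at -1.60 on the log2 scale (adjusted p = 0.00183), and counts per gene do not show which exons these reads came from. WT replicate 3 had 301 counts of the Y-linked gene *Ddx3y* and 1 of *Xist*, whereas the other 5 libraries had 0 of *Ddx3y*, the reverse of *Xist* at 1289 to 1866, so the sexes were not balanced between the genotypes. *Col1a1*, *Col1a2* and *Sparc* took 42.0% to 48.5% of the counts in WT and 28.3% to 34.8% in Mkx-/- libraries. Levels are therefore given as normalized CPM, which are counts divided by a library total that edgeR's TMM factor has adjusted. A gene was said to have risen or fallen in Mkx-/- tendons at an adjusted p under 0.05 in edgeR's quasi-likelihood test over 14550 genes.

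The genome around the gene starts shows how the pairs are arranged, and is given for the pairs whose members moved together and for the 2 related genes that moved apart. In mm9, *Col4a1* runs on the minus strand at chr8:11198423-11312826 and *Col4a2* on the plus strand at chr8:11312805-11449287. Their annotated first exons overlap by 22 bases. *Col4a4* (minus strand, chr1:82447298-82583424) and *Col4a3* (plus strand, chr1:82583496-82718634) are 71 bases apart. *Col4a6* (minus strand, chrX:137599946-137908619) and *Col4a5* (plus strand, chrX:137909928-138123778) are 1308 bases apart. *Col15a1* lies on the plus strand at chr4:47221033-47326039. *Col18a1*, on the minus strand at chr10:76514923-76629293, has a far start for its long transcript and a nearer one for shorter transcripts, and counts per gene add both. The sequences below are read 5′ to 3′ from mm9, on the plus strand for the first 3 and on the minus strand for *Col18a1*. Capitals mark matches, on either strand, to a GC box, spelled GGGCGG, to a CCAAT box of just those letters, or to a TATA box, for which the letters TATAAA were searched.
*Col4a1* and *Col4a2* overlap (chr8:11312805-11312826): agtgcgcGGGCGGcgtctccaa
*Col4a4* to *Col4a3* interval (chr1:82583425-82583495): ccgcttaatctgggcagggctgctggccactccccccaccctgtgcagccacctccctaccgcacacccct
*Col15a1*, 150 bases before the start (chr4:47220883-47221032): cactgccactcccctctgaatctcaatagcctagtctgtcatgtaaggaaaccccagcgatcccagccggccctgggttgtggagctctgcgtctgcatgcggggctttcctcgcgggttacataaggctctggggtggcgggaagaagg
*Col18a1*, 150 bases before the long transcript (chr10:76629294-76629443): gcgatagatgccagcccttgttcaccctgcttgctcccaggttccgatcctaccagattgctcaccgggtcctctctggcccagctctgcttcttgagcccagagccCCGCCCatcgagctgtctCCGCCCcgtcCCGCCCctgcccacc
*Col18a1*, 150 bases before the short transcripts (chr10:76576692-76576841): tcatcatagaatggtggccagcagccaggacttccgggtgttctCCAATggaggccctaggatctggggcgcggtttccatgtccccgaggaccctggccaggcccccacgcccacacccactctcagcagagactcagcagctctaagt

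The overlap of *Col4a1* and *Col4a2*, with a GC content of 72.7%, held 1 GC box. A GC box was found in 7.19% of the 22-base windows before the starts of RefSeq's GRCm38 promoter table (32851 windows). Those windows lie before a start, whereas the overlap lies inside the first exons, and they were not matched for GC content. The interval between *Col4a4* and *Col4a3* held none of the 3 motifs, although its GC content was 69.0%. Of 150-base windows, 28.6% held a GC box, 24.5% a CCAAT box and 7.57% a TATA box. The long-transcript window of *Col18a1* held 3 GC boxes, its short-transcript window 1 CCAAT box and the *Col15a1* window none of the 3. These are matches of letters, and no binding was measured.

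Of the 8 genes, 7 had enough counts to be tested, and all 7 passed the test, 3 upward and 4 downward. *Col4a1*, *Col4a2* and *Col18a1* rose in Mkx-/- tendons, whereas *Col4a3*, *Col4a4*, *Col4a5* and *Col15a1* fell. In bulk RNA, fewer cells of a type and less RNA per cell cannot be told apart. Over all genes tested, 3.18% rose and 2.26% fell. With a log2 fold change beyond 1 as a second threshold, *Col4a2* and *Col18a1* were upregulated, where 1.89% of all genes were, and *Col4a3* and *Col4a4* were downregulated, where 1.33% were. In each of the 7 genes the 3 Mkx-/- libraries did not overlap the 3 WT libraries. Among all genes tested, 14.6% had every Mkx-/- library above every WT library and 13.6% had every one below.

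**Figure D1:**
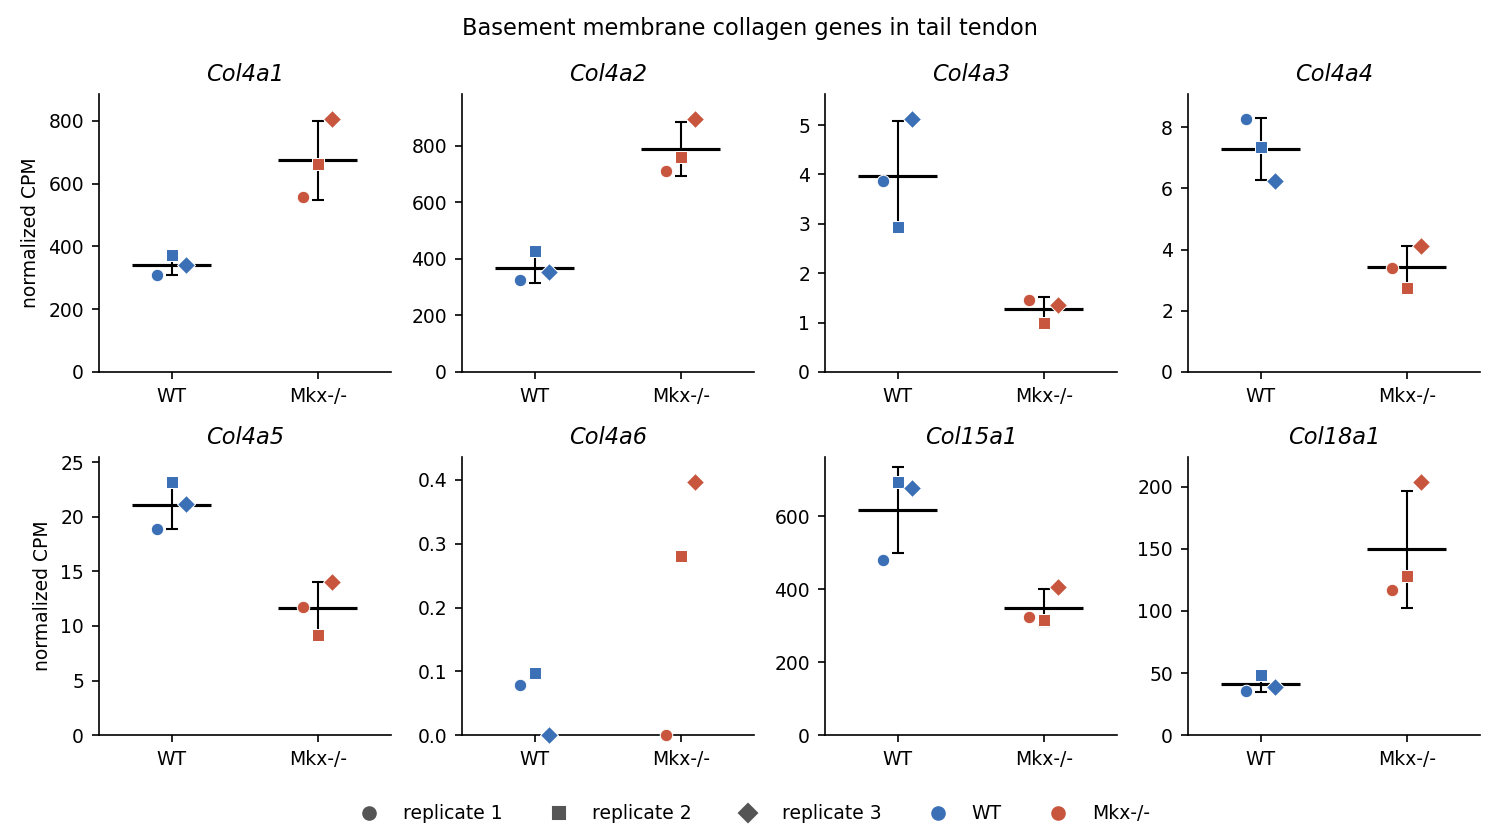
Normalized CPM of the 8 genes in each library, with WT in blue, Mkx-/- in red and one marker shape per replicate number, which is not known to pair the mice. Lines and bars are the mean ± SD of 3 libraries and are left out for *Col4a6*, which had 0 to 5 counts. The red points lie above the blue ones for *Col4a1*, *Col4a2* and *Col18a1* and below them for *Col4a3*, *Col4a4*, *Col4a5* and *Col15a1*.

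The most abundant collagen IV pair, *Col4a1* and *Col4a2*, about doubled. *Col4a1* was at 307, 372 and 341 CPM in WT libraries and at 557, 662 and 807 CPM in Mkx-/- libraries. The lowest Mkx-/- library was above the highest WT library, and Mkx-/- replicate 3 was the highest. In edgeR the log2 fold change was 0.99 with a standard error of 0.17 (adjusted p = 0.0168), or 1.98-fold. *Col4a2* was at 326, 426 and 352 CPM in WT and at 711, 760 and 895 CPM in Mkx-/- libraries. It followed *Col4a1* in the order of its Mkx-/- libraries and in WT replicate 2 being the highest of the WT libraries. In edgeR the log2 fold change was 1.10 with a standard error of 0.16 (adjusted p = 0.00902), or 2.14-fold. The call of *Col4a1* was lost without WT replicate 2 or 3 (adjusted p = 0.0578 and 0.0764) and without Mkx-/- replicate 2 or 3 (0.0531 and 0.0519). The call of *Col4a2* was lost without WT replicate 3 (0.0570).

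The proportion of the pair was compared within each library. Counts of *Col4a2* were 106%, 115% and 103% of those of *Col4a1* in WT libraries and 128%, 115% and 111% in Mkx-/- libraries. WT replicate 2 lay within the range of the Mkx-/- libraries, and the difference in mean log2 ratio of 0.13 was not past the threshold (exact two-sided permutation test, p = 0.2, and 0.2 after Benjamini-Hochberg adjustment over 7 ratios). With 3 libraries against 3, this test cannot give a p below 0.1, also for the other ratios given here.

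The genes for the chains of the second network moved the other way. *Col4a3* was rare, with 49, 30 and 64 counts in WT libraries and 16, 14 and 17 in Mkx-/- libraries. That is 3.86, 2.94 and 5.13 CPM against 1.47, 0.984 and 1.35 CPM, and edgeR's log2 fold change was -1.66 with a standard error of 0.31 (adjusted p = 0.0226). The spread among the WT libraries was wide, but the lowest of them was above the highest Mkx-/- library. *Col4a4*, its head-to-head partner, had 105, 75 and 78 counts in WT and 37, 39 and 52 in Mkx-/- libraries, and its normalized level went from 7.29 ± 1.01 CPM to 3.42 ± 0.691 CPM (SD, n = 3 each). In edgeR the log2 fold change was -1.09 with a standard error of 0.22 (adjusted p = 0.0303). The ratio of *Col4a4* to *Col4a3* counts was 122% to 250% in WT and 231% to 306% in Mkx-/- libraries, which overlapped (difference in mean log2 ratio 0.53, exact two-sided permutation test, p = 0.2, adjusted p = 0.2).

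*Col4a5*, the X-linked member of the second network and the most abundant of its genes, was at 18.8, 23.2 and 21.1 CPM in WT and at 11.7, 9.20 and 14.0 CPM in Mkx-/- libraries. All of the Mkx-/- values were below all of the WT values, and Mkx-/- replicate 3 was the nearest. In edgeR the log2 fold change was -0.85 with a standard error of 0.18 (adjusted p = 0.0328), or 1.81-fold lower. Without WT replicate 3, the library with *Ddx3y* counts, it was -0.87 (adjusted p = 0.0964). *Col4a6* had 1, 1 and 0 counts in WT and 0, 4 and 5 in Mkx-/- libraries, too few to test. Any change in this gene, whose chain joins that of *Col4a5* in the last of these networks, was thus not detectable at this depth.

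Each of these 3 calls was lost in several of the fits without 1 library, and the libraries concerned came from both genotypes. In those fits calls over all genes fell as well, for example from 463 higher and 329 lower to 117 and 127 without WT replicate 3. All 7 tested collagens stayed at an unadjusted p under 0.05 in each fit without 1 library. The call of *Col4a3* was not past the threshold without WT replicate 3 (adjusted p = 0.0893) or without Mkx-/- replicates 2 or 3 (0.0824 and 0.0680). *Col4a4* lost its call without WT replicates 2 or 3 (0.0895 and 0.0604) or Mkx-/- replicates 1 or 2 (0.0652 and 0.0927), and *Col4a5* without the same libraries (0.102 and 0.0964, 0.0712 and 0.0915). When counts were scaled by library size only, which raised the median of all genes by 0.25 on the log2 scale, *Col4a4* and *Col4a5* had log2 fold changes of -0.85 and -0.59 and were not past the threshold (adjusted p = 0.0679 and 0.0759). *Col4a3* was past it under that scaling, at -1.41 (0.0296).

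A ratio within a library needs no scaling, and *Col4a5* was compared in this way with *Col4a1* and *Col4a2*. Ratios of *Col4a3* and *Col4a4* to these 2 genes were not computed. For every 100 counts of *Col4a1* there were 6.12, 6.23 and 6.20 counts of *Col4a5* in WT tendons, against 2.11, 1.39 and 1.74 in Mkx-/- tendons. The WT libraries lay close together in this measure, with an SD of 0.013 on the log2 scale against 0.30 in Mkx-/- libraries, which were all far below. *Col4a5* had 236 to 264 counts per WT library, and counting noise alone is wider than an SD of 0.013. The mean ratio was 3.59-fold lower in Mkx-/- tendons (exact two-sided permutation test, p = 0.1, adjusted p = 0.14), the smallest p the design allows. Against *Col4a2* the ratio of *Col4a5* was 3.92-fold lower (p = 0.1, adjusted p = 0.14 in the same exact test).

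*Col15a1* and *Col18a1* also moved apart. *Col18a1* had the largest fold change of the 7 genes tested. It was at 35.8, 48.4 and 39.0 CPM in WT and at 116, 128 and 204 CPM in Mkx-/- libraries. Each Mkx-/- library was above every WT library, and Mkx-/- replicate 3 stood above the other 2. In edgeR the log2 fold change was 1.86 with a standard error of 0.23 (adjusted p = 0.00416), or 3.64-fold. Its call held in all 15 alternatives, the 6 omissions of a library included, with log2 fold changes of 1.58 (without Mkx-/- replicate 3) to 2.14 (library size only) and a highest adjusted p of 0.0288.

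*Col15a1*, by contrast, was at 482, 694 and 679 CPM in WT and at 323, 317 and 408 CPM in Mkx-/- libraries. WT replicate 1 was the lowest WT library and still above all 3 Mkx-/- libraries. In edgeR the log2 fold change was -0.82 with a standard error of 0.18 (adjusted p = 0.0417), or 1.77-fold lower, the smallest of the 7 changes. When each library was left out in turn, the call held in 1 of 6 fits, that without WT replicate 1 (-0.98, adjusted p = 0.00933). The others gave 0.120 and 0.126 without WT replicates 2 and 3, and 0.0990, 0.135 and 0.0675 without Mkx-/- replicates 1, 2 and 3. Scaled by library size only, it was at -0.55 (0.0738).

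**Figure D2:**
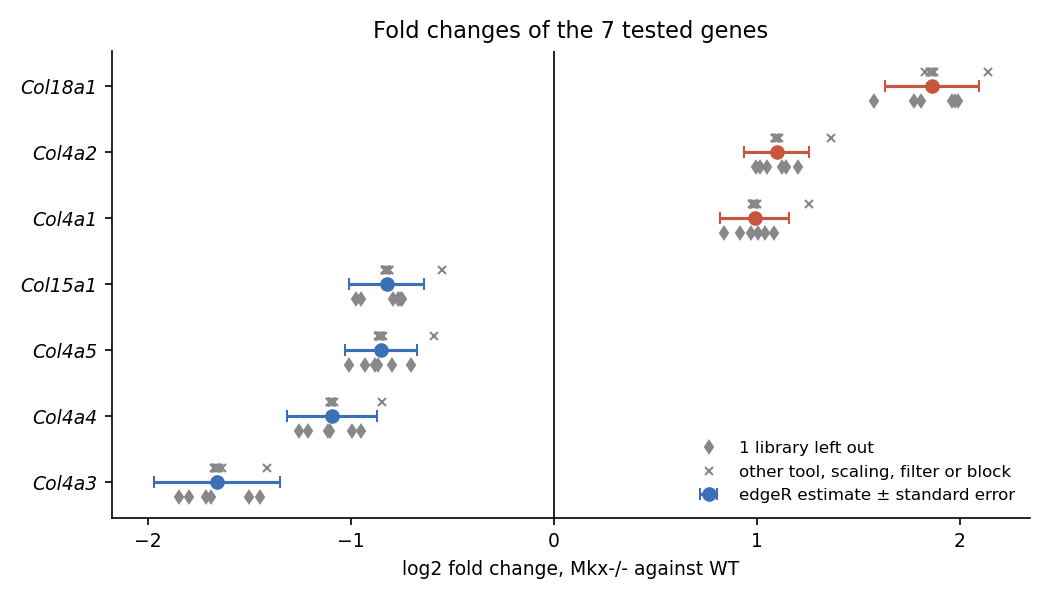
Log2 fold changes of the 7 tested genes in Mkx-/- against WT tendons. Large points with bars are the edgeR estimate ± its standard error, diamonds the 6 fits without 1 library and crosses the other alternatives, and each gene stays on its side of 0 throughout.

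Within a library, *Col18a1* had 7.44, 6.97 and 5.75 counts for every 100 of *Col15a1* in WT tendons and 36.0, 40.4 and 49.9 in Mkx-/- tendons. The mean ratio was 6.25-fold higher in Mkx-/- tendons, the largest shift of the 7 ratios, and the groups did not overlap (exact two-sided permutation test, p = 0.1, adjusted p = 0.14). *Col15a1* also changed places with *Col4a1*. Its counts were 157%, 187% and 199% of those of *Col4a1* in WT and 58.0%, 48.0% and 50.5% in Mkx-/- libraries (p = 0.1, adjusted p = 0.14 in the same exact test). *Col18a1* rose beyond *Col4a1* as well, from 11.4 to 13.0 counts for every 100 of *Col4a1* in WT to between 19.4 and 25.2 in Mkx-/- libraries, or 1.81-fold (p = 0.1, adjusted p = 0.14 in the same exact test).

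**Figure D3:**
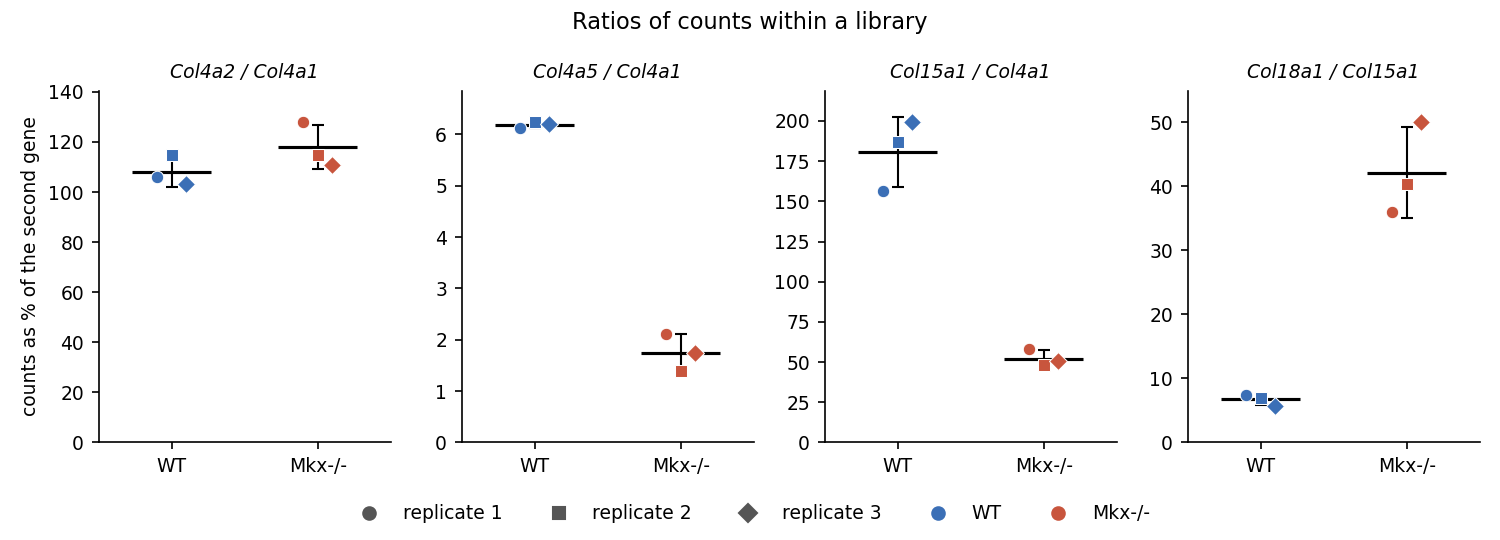
Counts of one gene as a percentage of those of another in the same library, with the mean ± SD of 3 libraries. The *Col4a2* to *Col4a1* ratio overlaps between WT (blue) and Mkx-/- (red), while the *Col4a5* to *Col4a1* and *Col15a1* to *Col4a1* ratios are lower and the *Col18a1* to *Col15a1* ratio is higher in every Mkx-/- library.

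Levels of different genes can be compared per length. Divided by the exon length of each gene, *Col15a1* was the highest in WT tendons at 97.4 ± 18.7 CPM per kb (SD, n = 3), followed by *Col4a2* at 55.6 ± 7.87 and *Col4a1* at 49.9 ± 4.72, whose libraries overlapped. *Col18a1* at 5.85 ± 0.929, *Col4a5* at 3.13 ± 0.323, *Col4a4* at 0.877 ± 0.122 and *Col4a3* at 0.399 ± 0.110 CPM per kb followed without overlap between neighbours. In Mkx-/- tendons the order began with *Col4a2* at 119 ± 14.4 and *Col4a1* at 99.0 ± 18.4 CPM per kb, which again overlapped, and *Col15a1* came next at 55.0 ± 7.96. *Col18a1* followed at 21.3 ± 6.73. The order of the remaining genes was the same as in WT, and the longest transcript in place of the exon length gave the same order in both genotypes.

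Summed per length, RNA of the collagen IV genes went from 110 ± 12.7 to 220 ± 33.0 CPM per kb (SD, n = 3 each). Protein was not measured in these libraries. *Col4a3*, *Col4a4* and *Col4a5* together made up 4.24%, 3.74% and 4.10% of this RNA sum in WT and 1.20%, 0.841% and 1.06% in Mkx-/- libraries. *Col4a1* and *Col4a2* made up nearly all of the rest. *Col18a1* was 4.94% to 6.31% of the RNA sum of *Col15a1* and *Col18a1* in WT and 24.6% to 31.1% in Mkx-/- libraries. That sum was 80.9 to 116 CPM per kb in WT and 67.5 to 93.2 in Mkx-/- libraries, which overlapped.

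The other components of the basement membrane were examined with the same fit. Of 30 laminin chains, nidogens, proteoglycans and associated proteins, 27 were tested, 4 rose, 2 fell and 21 were not past the threshold. DESeq2 called 6 higher and 3 lower, and 12 were higher and 3 lower at an unadjusted p under 0.05 in edgeR. The median log2 fold change of the list was 0.42, against -0.0037 over all genes. *Hmcn2*, which encodes a hemicentin, rose by 1.67 on the log2 scale (adjusted p = 0.00219 in edgeR). *Npnt*, an integrin ligand, and *Smoc2*, a relative of *Sparc*, rose by 0.97 each (0.0111 and 0.0465). The second *Smoc* gene, *Smoc1*, and the fibulin gene *Fbln1* fell by 2.36 and 1.58 on the log2 scale (0.00771 and 0.00525). Neither nidogen gene was called, and perlecan (*Hspg2*), the most abundant proteoglycan of the list, had a WT level of 1714 ± 213 CPM and a Mkx-/- level of 1914 ± 90.5 CPM (SD over 3 libraries, adjusted p = 0.595). The collagen-binding protein gene *Sparc* had the highest level, at 66476 ± 4661 and 39214 ± 3837 CPM (adjusted p = 0.0994).

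A list of 21 genes was made up mostly of those for the hydroxylation, glycosylation, folding, export and cross-linking of collagens, collagen IV among them. Of these 21, 2 rose, 1 fell and 18 were not past the threshold, with a median log2 fold change of -0.056. DESeq2 called 3 higher and 3 lower, and 5 were higher and 3 lower at an unadjusted p under 0.05 in edgeR. *Plod2*, a lysyl hydroxylase, had 8.59 ± 0.340 CPM in WT against 74.1 ± 19.7 in Mkx-/- libraries (SD over 3 libraries), or 3.11 on the log2 scale (edgeR adjusted p = 0.000475). *P4ha2*, a subunit of prolyl 4-hydroxylase, rose with 1.31 (0.0199). *Leprel1* encodes the prolyl 3-hydroxylase known to act on collagen IV, and it fell from 89.3 ± 10.2 to 33.8 ± 5.66 CPM (log2 fold change -1.40, adjusted p = 0.00307). The change was thus opposite in sign to that of *Col4a1* and *Col4a2*. *Loxl2* and *Serpinh1*, a cross-linking enzyme and a collagen chaperone and the 2 most abundant genes of the list, had log2 fold changes of -0.94 and -0.01 (adjusted p = 0.140 and 0.983).

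Among 18 receptors for basement membrane proteins or their fragments, 3 rose and 1 fell, with a median of 0.49. DESeq2 called 8 higher and 2 lower, and 10 were higher and 2 lower at an unadjusted p under 0.05 in edgeR. *Gpc1* and *Gpc4*, glypicans described as binding endostatin, rose by 1.58 and 1.46 on the log2 scale (adjusted p = 0.00149 and 0.00393 in edgeR). *Itga11*, a collagen-binding integrin chain, rose with 0.95 (0.0115). *Itga2*, another collagen-binding integrin chain, fell by 2.04 on the log2 scale (0.00271). *Itgb1*, the partner of both, was at 312 ± 32.9 and 326 ± 27.3 CPM (SD, n = 3 each, adjusted p = 0.837), and dystroglycan (*Dag1*), the next most abundant, had a log2 fold change of 0.42 (0.133). Of 10 tested proteases and inhibitors from a list of 13, *Mmp2*, a gelatinase that cleaves collagen IV, rose with 1.12 (0.00380) and *Timp3* with 0.75 (0.0362). The number that fell was 0 in edgeR and 0 in DESeq2, and 2 were lower at an unadjusted p under 0.05 in edgeR. The abundant *Timp2* and *Ctsb* had log2 fold changes of 0.01 and 0.13 (0.981 and 0.570).

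**Figure D4:**
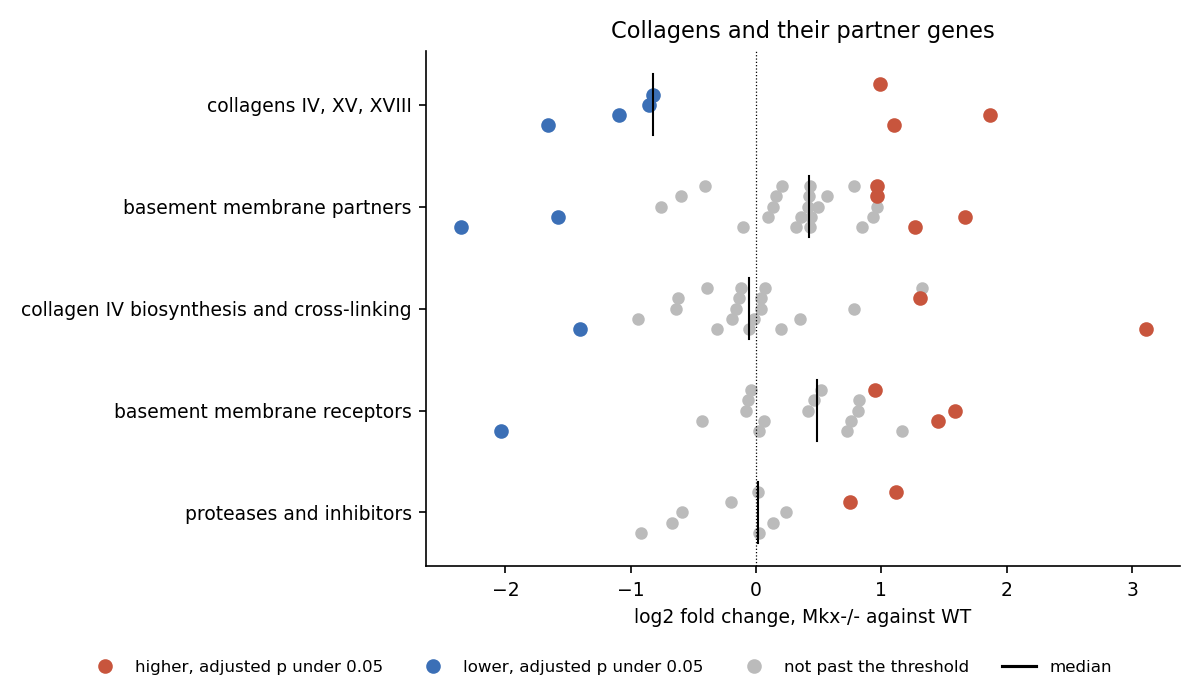
Log2 fold change of the 7 tested collagens and of the tested genes of each partner list, with genes past an adjusted p of 0.05 in red (higher) or blue (lower), the others in grey and the median as a black line. All 7 collagens are coloured, while 21 of 27 partners, 18 of 21 biosynthesis genes, 14 of 18 receptors and 8 of 10 proteases and inhibitors are grey.

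Several cell types make these collagens, and markers of each were summed per library. Summed over 14 endothelial markers, the level was 89.2 to 111 CPM in WT and 154 to 236 CPM in Mkx-/- libraries, with replicate 3 the highest, the order also seen for *Col4a1*, *Col4a2* and *Col18a1*. Of these markers 2 rose in edgeR, *Erg* and *Ecscr*, while 9 of the 14 rank as higher when p under 0.05 is left unadjusted, DESeq2 called 6 higher, and the median log2 fold change was 0.95. *Pecam1*, *Cdh5*, *Tie1*, *Vwf*, *Robo4* and *Egfl7* had log2 fold changes of 1.30, 1.06, 1.30, 1.02, 0.96 and 0.93, and each was highest in Mkx-/- replicate 3, as were *Col4a1*, *Col4a2* and *Col18a1*. None of these 6 was past the threshold in edgeR (adjusted p = 0.0885 to 0.130). *Erg* rose with 2.12 (edgeR adjusted p = 0.00195) but was lowest in Mkx-/- replicate 3, and *Tek* was at 25.9 ± 4.38 and 26.2 ± 1.42 CPM (SD, n = 3 each). *Kdr*, *Cldn5* and *Plvap* had log2 fold changes of 0.65, 0.69 and 0.20, whereas *Esam* and *Emcn* had -0.32 and -0.26. None of these was past the threshold in edgeR (adjusted p = 0.202 to 0.881). The sum of 12 Schwann cell markers, *Pmp22* among the most abundant, was 8182 to 10822 CPM in WT and 12687 to 23556 CPM in Mkx-/- libraries in the same order, with a median of 0.97 and 0 of 11 tested genes past the threshold in edgeR. At an unadjusted p under 0.05, 9 of the 11 were, and DESeq2 called 9, all higher.

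The sum of 10 mural cell markers was 356 to 415 CPM in WT, 334 and 370 CPM in Mkx-/- replicates 1 and 2, and 1155 CPM in replicate 3, and 0 were called in edgeR. At an unadjusted p under 0.05, 4 were higher, and DESeq2 called 1 higher. The most abundant, *Pdgfrb* and *Acta2*, had log2 fold changes of -0.03 and 0.94. *Acta2* was at 66.6, 101 and 92.1 CPM in WT and at 52.3, 50.2 and 396 CPM in Mkx-/- libraries, so it was below every WT library in 2 of the 3 and far above them in replicate 3. Skeletal muscle markers (12 genes, led by *Acta1* and *Myh1*) summed to 98.0 to 378 CPM in WT and to 2594, 1252 and 523 CPM in Mkx-/- replicates 1, 2 and 3, the reverse of the order of *Col4a1*, and 3 rose (*Tnnt3*, *Tnni2* and *Tnnc2*). That count was 0 in the robust fit and without WT replicate 2, WT replicate 3, Mkx-/- replicate 1 or Mkx-/- replicate 2, and 10 without WT replicate 1. DESeq2 called 6 higher, and 11 of the 12 were higher at an unadjusted p under 0.05 in edgeR. Macrophage and leukocyte markers (9 genes, led by *Lyz2* and *Csf1r*) summed to 539 to 593 CPM in WT and 365 to 448 CPM in Mkx-/- libraries, and 2 fell (*Csf1r* and *Emr1*). The count was 1 without WT replicate 2 or 3 and without Mkx-/- replicate 2 or 3, DESeq2 called 3 lower, and 8 were lower at an unadjusted p under 0.05. Of 8 adipocyte markers, led by *Plin4* and *Fabp4*, 2 were tested and *Plin4* rose, with sums of 8.49 to 13.4 CPM and 21.3 to 30.6 CPM, and the count was 0 without WT replicate 2 or 3 or Mkx-/- replicate 2. Epidermal markers (7 genes, led by *Trp63* and *Cdh1*) summed to 20.9 to 36.4 CPM and 38.9 to 46.5 CPM, with 0 of 6 tested genes called in edgeR. At an unadjusted p under 0.05, 4 were higher and 1 lower, and DESeq2 called 2 higher and 1 lower.

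The tendon markers were present throughout, with *Col1a2* and *Col1a1* the most abundant genes. Their list of 8 summed to 377898 to 521406 CPM in WT and 241623 to 336473 CPM in Mkx-/- libraries, and 1 gene, *Thbs4*, rose in edgeR. That call was lost with the replicate numbers as a block and without WT replicate 2 or 3. At an unadjusted p under 0.05, 2 were higher and 2 lower, and DESeq2 called 2 higher and 3 lower. No listed marker was at 0 in all libraries. Without Mkx-/- replicate 3, where the endothelial and mural sums were highest, the log2 fold changes of *Col4a1*, *Col4a2* and *Col18a1* were 0.84, 0.999 and 1.58 (edgeR adjusted p = 0.0519, 0.0339 and 0.00707). The endothelial and Schwann sums of Mkx-/- replicates 1 and 2 were also above every WT library, so this omission does not remove the difference in these sums. In replicate 1 the endothelial excess lay mostly in *Erg* (44.1 CPM against 6.78 to 9.69 in WT) and *Ecscr* (20.4 against 8.90 to 9.42). There *Pecam1*, *Cdh5*, *Tie1*, *Vwf*, *Egfl7* and *Robo4* were above every WT library by less. *Kdr*, *Tek*, *Cldn5* and *Plvap* were within the WT range, and *Esam* and *Emcn* were below it. The part of these cell types in the collagen levels was not tested.

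**Figure D5:**
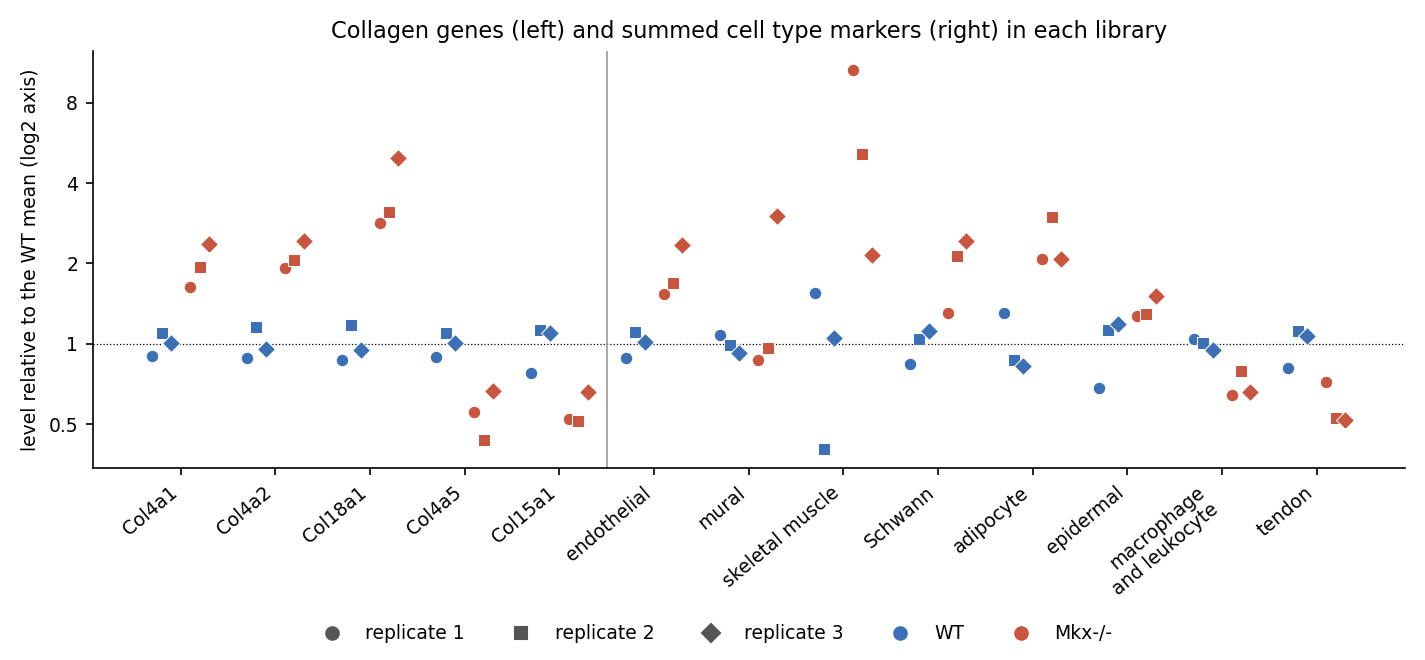
Levels in each library relative to the WT mean, on a log2 axis, for 5 of the collagen genes (left of the line) and for the summed markers of 8 cell types (right). In Mkx-/- libraries (red) *Col4a1*, *Col4a2* and *Col18a1* rank the libraries in the same order as the endothelial, mural, Schwann and epidermal sums. The skeletal muscle and tendon sums have the opposite order. The mural sum is above the WT libraries in replicate 3 alone.

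Over the 6 libraries, the genes whose log2 CPM most resembled that of *Col4a1* were *Plekhg2*, *Gamt*, *Olfm1*, *Crip1* and *Ugp2* (Pearson r between 0.993 and 0.997), and of the 10289 genes whose mean was 5 CPM or more, 205 reached an r of 0.95. For *Col18a1* they were *Gamt*, *Trio*, *Mlst8*, *Gm7665* and *Crip1* (0.993 to 0.999), so that *Gamt* and *Crip1* stood in both lists. For *Col15a1* they were *Colq*, *Slc14a2*, *Thsd4*, *Lsmem2* and *Gm15210* (0.990 to 0.998), with 50 genes at 0.95 or more. The 6 points share 2 genotypes and their depth, so these values describe the libraries only. Pearson r takes no account of the size of a change. Of the genes listed here, *Gamt*, *Olfm1*, *Crip1*, *Gm7665* and *Colq* were past the threshold in edgeR, and the others were not. *Trio* had a log2 fold change of 0.19 and *Gm15210* of -0.17 (edgeR adjusted p = 0.332 and 0.408).

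The annotation places other genes over 2 of the members in exons apart from the pair above, namely *Gm15419* over 43 exon bases of *Col4a2* and *Gm12426* over 14 of *Col15a1*, both on the opposite strand and not analysed here. *Slc19a1* overlaps *Col18a1* on the opposite strand without shared exon bases and had 124 to 203 counts per library, against 455 to 2568 for *Col18a1*. Whether the counting used strand is not given in the sources used here.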

How the data were processed

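Tail tendon RNA of 3 WT and 3 Mkx-/- libraries was sequenced on the Ion Proton system. The authors removed adaptors and low-quality reads, aligned the rest to mm9 with MapSplice and deposited raw counts per gene symbol. The counting program, its annotation and its use of strand are not given in the sources used here. Groups came from the labels, and 0 columns were left unused. Genes were filtered with filterByExpr and tested with edgeR 4.0.16 (R 4.3.3, TMM scaling, quasi-likelihood test, Benjamini-Hochberg adjustment over 14550 genes). Standard errors were the absolute log2 fold change over the square root of F. Ratios were compared with exact permutation tests (scipy 1.17.1), tables handled with pandas 2.3.3, and lengths and sequences taken from GENCODE's mm9 annotation and genome. DESeq2 1.42.0, other scalings, filters, a robust fit, a replicate block and the omission of each library were the alternatives. The fit was tested on simulated data.

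The members and gene lists were chosen with earlier results of these data known. The genes named are the 8 members, *Mkx*, up to 4 genes of smallest p per direction past the threshold in each partner list with its 2 most abundant genes, the 2 most abundant markers of each cell type, the 5 genes most like *Col4a1*, *Col15a1* and *Col18a1*, and genes overlapping a member. *Ddx3y*, *Xist* and the markers *Pecam1*, *Cdh5*, *Tie1*, *Vwf*, *Robo4*, *Egfl7*, *Ecscr*, *Kdr*, *Cldn5*, *Plvap*, *Esam*, *Emcn*, *Tnnt3*, *Tnni2*, *Tnnc2*, *Emr1* and *Thbs4* were named after their values were seen. Of the genes this rule selects, 2 are not reported here. Replicates of a genotype differed by more than sampling noise (chi-square per degree of freedom 7.59 to 36.4). Totals of 10835070 to 14160301 counts leave genes such as *Col4a6* too shallow to test.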

Additional observations from a re-analysis of the deposited data

How the results depend on the processing

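The 7 tested collagens kept their direction in all 15 alternatives, and of the 105 combinations 78 kept the call and 27 lost it. With library size only, which raised the median of all genes by 0.25 (log2), *Col4a4*, *Col4a5* and *Col15a1* had log2 fold changes of -0.85, -0.59 and -0.55 and lost their calls, so 1 member was called lower. All-gene calls were then 1358 higher and 197 lower against 463 and 329, or 87.3% higher against 58.5%, and 11 partners, 4 biosynthesis genes and 9 receptors were higher. Same-numbered deviations of WT and Mkx-/- libraries correlated at 0.03, -0.21 and 0.30. Differently numbered libraries were not compared, so this does not settle whether the numbers pair the libraries. With the replicate block, the same 3 genes had -1.10, -0.86 and -0.81 and lost their calls, leaving 1 member lower, with 264 genes higher, 170 lower and 1 protease or inhibitor higher. DESeq2 gave 787 higher and 588 lower, with 3 biosynthesis genes lower, 8 receptors higher and 2 lower. A filter of 1 count gave 970 and 594, with 3 biosynthesis genes lower and 8 receptors higher. The filter of 10 counts and the robust fit gave 2 biosynthesis genes lower each.

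Leaving out 1 library gave log2 fold changes of 0.84 to 1.09 for *Col4a1*, 0.999 to 1.20 for *Col4a2*, -1.85 to -1.45 for *Col4a3*, -1.25 to -0.95 for *Col4a4*, -1.01 to -0.71 for *Col4a5* and -0.98 to -0.75 for *Col15a1*. Members called higher numbered 1 to 3 and lower 0 to 4. All 4 lower calls were lost in edgeR without WT replicate 3 and likewise without Mkx-/- replicate 2, where all 7 members were at an unadjusted p under 0.05, and DESeq2 on all libraries called 7. All-gene calls numbered 117 to 539 higher and 127 to 439 lower, each lowest without WT replicate 3, where 48.0% of calls were higher. Higher calls were 2 to 5 partners, 1 to 2 biosynthesis genes, 2 to 5 receptors and 1 to 2 proteases or inhibitors, and 1 to 3 biosynthesis genes were lower. Depth limits *Col4a3*, with 14 to 64 counts a library, and *Col4a6*, with 0 to 5.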
